A study of Homo sapiens with 7 samples.

Results

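MBNL1, MBNL2, MBNL3, CELF1, CELF2, STAU1 and DMPK are 7 genes whose products act in myotonic dystrophy, and they were taken by symbol, on chromosomes 1 to 22 or X, from a table of 63655 genes. All 7 have 1 row each, and all 7 passed the authors' own criteria for testing. All samples were HEK293 cells, a line established from human embryonic kidney, in which CNBP carried a FLAG-HA tag. Control knockdown was labelled on 3 samples and CNBP knockdown on 4. The CNBP knockdown samples carry nested replicate numbers, whereas the control samples are numbered in plain sequence. The labels do not explain the nesting. The samples' values reach the table pooled, as 1 FPKM under the heading OE and 1 under the heading siRNA. FPKM stands for fragments per transcript length in kilobases, relative to all mapped fragments. The heading siRNA, with the design text, was taken to mean CNBP knockdown; OE is not explained in the labels, so each heading is used as it stands in the file. Should OE mean overexpression of CNBP, every ratio would join that change to the knockdown.

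Myotonic dystrophy is a muscle disease caused by expanded repeats in RNA. In type 1 the repeat is CTG in the 3′ untranslated region of DMPK, and in type 2 it is CCTG in an intron of CNBP, the gene lowered in this series. The repeat RNA holds muscleblind-like (MBNL) proteins in nuclear foci, so that splice forms normally seen in early development are kept in adult muscle. In type 1 the opposing regulator CELF1 also gains activity. Muscleblind-like proteins bind RNA through CCCH zinc fingers, and CELF proteins bind GU-rich RNA through RNA recognition motifs. These gene-level values measure how much RNA each gene gave, and not which splice forms it made.

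The letters below show how alike the paralogs are at the start of their coding sequence, where the title of the series places G-rich sites bound by CNBP. Each line holds the first 60 coding bases of 1 GENCODE 29 transcript (build GRCh38, sense strand). Capitals mark bases that are the same at the same place in a paralog, MBNL1 and MBNL2 being set against each other, MBNL3 against MBNL2 after a shift of 3 bases, and CELF1 and CELF2 against each other.
MBNL1: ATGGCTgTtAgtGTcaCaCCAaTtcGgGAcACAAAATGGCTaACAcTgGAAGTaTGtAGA
MBNL2: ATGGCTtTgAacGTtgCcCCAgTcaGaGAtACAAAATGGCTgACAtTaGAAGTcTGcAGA
MBNL3: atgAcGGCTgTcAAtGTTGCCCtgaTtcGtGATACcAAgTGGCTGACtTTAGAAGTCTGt
CELF1: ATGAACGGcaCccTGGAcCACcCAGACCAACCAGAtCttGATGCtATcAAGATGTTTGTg
CELF2: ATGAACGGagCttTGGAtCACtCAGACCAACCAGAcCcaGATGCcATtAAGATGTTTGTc
MBNL1 and MBNL2 shared 43 of 60 bases, MBNL3 shared 43 of the 57 compared with MBNL2, and CELF1 and CELF2 shared 48 of 60. Over the whole transcripts the longest identical run was 17 bases in each MBNL pair and 23 bases between CELF1 and CELF2. No 50-base stretch of the MBNL2, MBNL3, CELF1 or CELF2 transcript occurred in an annotated transcript of any other gene, on either strand. The G-rich pentamer TGGAG, searched on the sense strand, was in none of the 7 genes' 60-base windows, STAU1 and DMPK included. It was in 19.8% of 12927 such windows of expressed coding genes. Its shorter core GGAG was in 2 of the 7 windows, those of CELF2 and STAU1, and in 43.9% of all windows.

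DMPK is shown by the repeat that defines type 1 disease. In its GENCODE 29 transcript of 2787 bases (chromosome 19, minus strand) bases 2240 to 2299 are an unbroken run of 20 CTG units, of which the first 10 are printed, the capitals marking the repeat.
DMPK: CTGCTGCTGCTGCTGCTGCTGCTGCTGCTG
A run at least this long stood in 2 of 12942 expressed coding transcripts, DMPK included, and the longest CTG run in the other members was 3 units. The number of units in these cells was not analysed here, and this is the length in the reference.

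CNBP itself, the gene targeted, had 579.8 FPKM under OE and 45.5 FPKM under siRNA, a 12.7-fold lower value (q = 0.00791, authors' deposited table). None of the 7 genes was called, a call being a q-value under 0.05 in that table. The background was 336 of 24822 tested genes, or 1.35%, with 0.572% called higher and 0.782% lower in siRNA, so a count of 0 among 7 genes is close to that background. At an unadjusted p under 0.05, CELF2 and STAU1 passed, both higher in siRNA, against 10.9% of all tested genes in either direction, 4.51% higher and 6.41% lower. Since the file gives pooled values alone, there is no SD or n and no test of samples beyond the deposited one, and the depth per sample is unknown. Fewer cells of a kind and less RNA per cell cannot be told apart in such bulk values.

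CELF1 was the most abundant of the 7 in both conditions, at 70.3 FPKM under OE and 91.4 FPKM under siRNA. MBNL1 stood at 44.4 and 45.7 FPKM, STAU1 at 43.2 and 58.3 FPKM and DMPK at 42.1 and 24.2 FPKM. The remaining genes were lower, with MBNL3 at 12.4 and 9.47 FPKM, MBNL2 at 10.1 and 13.4 FPKM and CELF2 at 9.13 and 13.5 FPKM. The order in OE was CELF1, MBNL1, STAU1, DMPK, MBNL3, MBNL2 and CELF2, and in siRNA CELF1, STAU1, MBNL1, DMPK, CELF2, MBNL2 and MBNL3. Without replicate values the neighbours in these orders could not be tested against each other. Among 12942 expressed coding genes (tested, mean FPKM 1 or more), CELF1 lay above 90.2% in OE and CELF2 above 35.5%.

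**Figure D1:**
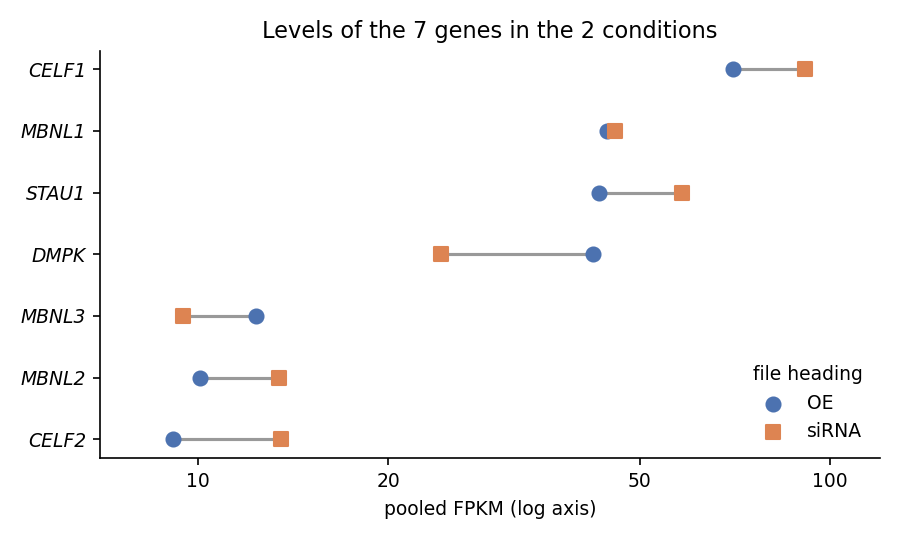
Pooled FPKM (log axis) of the 7 genes in the conditions headed OE (circles) and siRNA (squares), joined by a line for each gene, with no error bars because the file holds 1 value per condition. MBNL1 has nearly the same value in both, DMPK and MBNL3 lie lower in siRNA, and the other four lie higher.

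Among the muscleblind-like genes, whose proteins the expanded repeats sequester, none had a p under 0.05. MBNL1, the main form in adult muscle (ENSG00000152601, chromosome 3, 151961617 to 152214602, hg19), had a siRNA to OE ratio of 1.03, or 0.041 on the log2(FPKM + 1) scale, with p = 0.892 in the authors' deposited table. Its sign depends on the scaling, since centring on genes of like expression gave -0.083 and centring on genes of like GC content -0.17. MBNL2, the main form in brain (ENSG00000139793, chromosome 13, 97873688 to 98046374), had a ratio of 1.33 and a log2 change of 0.38, with p = 0.0885 and q = 0.586 in the authors' deposited table. MBNL3, which is linked to undifferentiated myoblasts (ENSG00000076770, chromosome X, 131337053 to 131623996), was 1.30-fold lower in siRNA, a log2 change of -0.35, with p = 0.398 in the authors' deposited table.

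The summed level of the MBNL genes was 66.8 FPKM under OE and 68.6 FPKM under siRNA, a ratio of 1.03. MBNL1 made up 66.5% of it in OE and 66.7% in siRNA. MBNL2 went from 15.0% to 19.5% and MBNL3 from 18.5% to 13.8%, so the MBNL2 to MBNL3 ratio was 0.814 in OE and 1.42 in siRNA. These shares set 1 pooled value against another, and the difference between conditions was not tested.

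CELF1 (ENSG00000149187, chromosome 11, 47487496 to 47606114), the antagonist of MBNL1 on many exons, had a ratio of 1.30 and a log2 change of 0.37, with p = 0.429 in the authors' deposited table. CELF2 (ENSG00000048740, chromosome 10, 11047259 to 11378674), a related regulator of muscle, heart and brain, had a ratio of 1.48 and a log2 change of 0.52. Its p of 0.0127 and q of 0.238 in the authors' deposited table were the smallest of the 7. Together the CELF genes stood at 79.4 FPKM under OE and 104.9 FPKM under siRNA, a ratio of 1.32. CELF1 made up 88.5% and 87.1% of those sums. The ratio of summed CELF to summed MBNL levels was 1.19 in OE and 1.53 in siRNA, again with no test.

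STAU1 (ENSG00000124214, chromosome 20, 47729878 to 47804904) encodes Staufen1, a double-stranded RNA-binding protein that takes part in mRNA transport and decay and binds expanded CUG repeats. It had a ratio of 1.35 and a log2 change of 0.43, with p = 0.0301 and q = 0.359 in the authors' deposited table. DMPK (ENSG00000104936, chromosome 19, 46268043 to 46296060) encodes a serine/threonine kinase. It stood 1.74-fold lower in siRNA, a log2 change of -0.77, which was the farthest from 0 among the 7, yet with p = 0.163 and q = 0.740 in the authors' deposited table. Only 1.94% of expressed coding genes had a lower change than DMPK, and 92.9% had a lower change than CELF2. The median over the 7 genes was 0.37, against -0.012 over all tested genes.

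**Figure D2:**
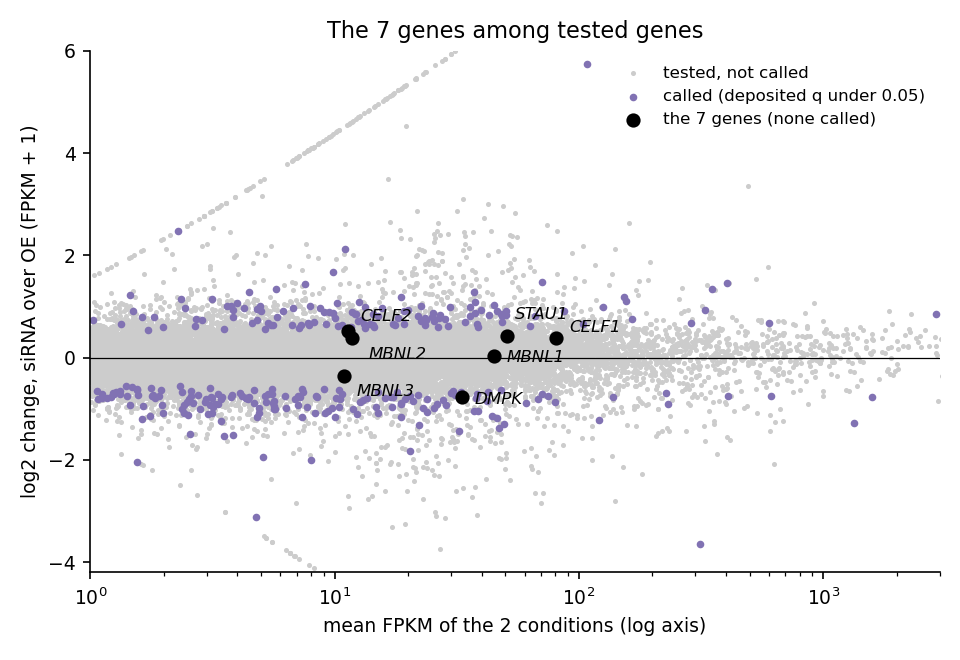
Log2 change of siRNA over OE (FPKM + 1) against the mean FPKM of both conditions (log axis) for tested genes whose mean FPKM was 1 or more, with called genes in purple and the 7 genes in black; genes beyond the axes are not drawn. The 7 genes lie between -0.77 and 0.52, and none is called.

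Of coding genes at like levels that had moved as far as a member, only a part was called. Among 4683 coding genes with a mean FPKM within 2-fold of that of DMPK, 130 had moved at least as far, and of those 110 had p under 0.05 and 49 were called. DMPK is among the 20 that had neither. For CELF2, 735 of 4982 genes of like level had moved at least as far, and 81 of them were called. The smallest fold of any called gene was 1.54 in that range of levels and 1.53 in that of DMPK. The folds of MBNL1, MBNL2, MBNL3, CELF1, CELF2 and STAU1 lay under the smallest called fold at their own levels, and that of DMPK lay above it.

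The locus listed for a gene can be a bundle of overlapping genes, wider than the gene itself. The loci of CELF1, MBNL3 and DMPK also hold other expressed coding genes, and those of MBNL1, MBNL2, CELF2 and STAU1 hold none. This was looked at after the values were seen. Expressed coding genes that shared a locus with another expressed coding gene had p under 0.05 in 4.43% of 4513 cases and were called in 0.266%. Those that did not, whether or not noncoding genes lay there, had p under 0.05 in 18.1% of 8429 cases and were called in 2.52%. The median size of the log2 change was 0.24 in the first set and 0.25 in the second, and the median level 15.9 and 14.8 FPKM.

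**Figure D3:**
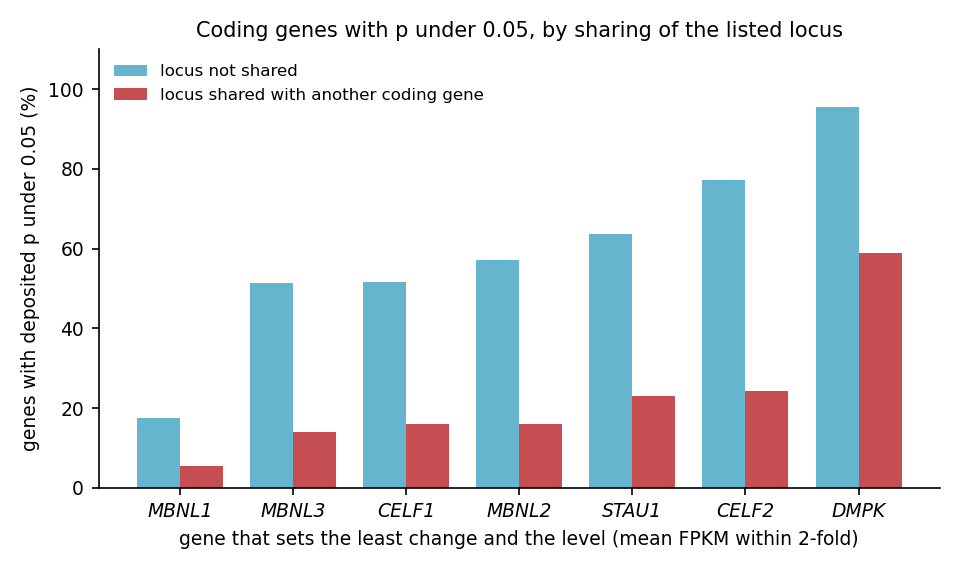
Percentage of expressed coding genes with a deposited p under 0.05. The genes lay within 2-fold of each member's mean FPKM and had moved at least as far as that member. Blue marks genes with no other expressed coding gene at their listed locus, and red marks genes sharing it with another expressed coding gene. For the level and change of DMPK the values are 95.6% and 59.0%, and for those of CELF1 51.7% and 15.9%.

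Among the genes matched to DMPK in level and moved at least as far, some had no other expressed coding gene at their locus. Of these, 87 of 91 had p under 0.05, and of those at a shared locus 23 of 39. For the level and change of CELF1 the counts were 208 of 402 and 35 of 220, and for MBNL3 559 of 1086 and 75 of 538. Whether bundling accounts for the p-values of CELF1, MBNL3 and DMPK was not tested. RAP2C, the coding gene listed with MBNL3 and encoding a small GTPase, was at 32.3 and 24.8 FPKM, 1.30-fold lower like MBNL3. NDUFS3, a subunit of respiratory complex I listed with CELF1, was at 88.8 and 111 FPKM, a ratio of 1.25 beside 1.30 for CELF1, whereas PTPMT1, a mitochondrial phosphatase gene at the same locus, was at 30.8 and 29.6 FPKM, a ratio of 0.962. KBTBD4, also listed there, was at 5.60 and 7.19 FPKM for its coding gene. How reads were divided within these bundles could not be checked.

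At the DMPK locus the coding neighbours did not have the ratio of DMPK. DMWD, a WD-repeat gene next to DMPK, was at 29.5 and 29.2 FPKM. SIX5, a homeobox gene whose regulatory region lies close to the repeat, was at 6.42 and 5.10 FPKM. AC011530.4, also annotated as coding there, was at 6.50 and 7.47 FPKM. Of the noncoding genes listed there, AC074212.5 had a ratio of 0.619, at 2.65 and 1.64 FPKM, beside 0.575 for DMPK. AC074212.6 had 1.06, at 2.04 and 2.17 FPKM. Farther along chromosome 19, SYMPK, a polyadenylation scaffold, was at 73.6 and 57.4 FPKM, QPCTL at 11.0 and 8.55 FPKM, FBXO46 at 15.9 and 13.9 FPKM and SNRPD2, a core protein of spliceosomal particles, at 627.9 and 718 FPKM. RSPH6A, at 0.135 and 0.103 FPKM, was not tested. The list of DMPK neighbours leaves out those AC-named genes. None of its 6 tested genes was called by Cuffdiff or had an unadjusted p under 0.05, against 1.35% and 10.9% of all tested genes. Their median log2 change was -0.23, or 0.0087 when centred on genes of like GC content.

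Antisense transcripts also lie within these loci, and strand handling in the authors' counting is not stated. Of the 50-base stretches of the MBNL1 transcript 15.5% occur in its antisense gene MBNL1-AS1, and 14.3% of those of DMPK occur in other annotated genes, while for STAU1 the share was 0.715%. MBNL1-AS1 was at 0.357 and 0.278 FPKM and was not tested. CELF2-AS2 was at 10.4 and 11.3 FPKM, close to the level of CELF2, and CELF2-AS1 at 2.71 and 3.40 FPKM, neither called. The levels of MBNL1 and DMPK are uncertain to the extent of these shared stretches.

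The members differed in base content, which went with the change across expressed coding genes. With expressed coding genes divided by transcript GC content into 10 bins, the median change went from 0.28 in the lowest bin to -0.24 in the highest. The DMPK transcript, at 64.9% GC, lay in the highest bin, and its change minus the median of that bin was -0.54. The MBNL2 transcript, at 36.8%, lay in the lowest, and its change became 0.10. MBNL1, at 39.9%, and MBNL3, at 41.1%, lay in the second and became -0.17 and -0.56. CELF2, at 42.1%, kept 0.36, CELF1, at 47.3%, 0.30, and STAU1, at 46.96%, 0.35. Measured this way the median over the 7 genes was 0.10 in place of 0.37. The part of base content in these changes was not tested further.

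**Figure D4:**
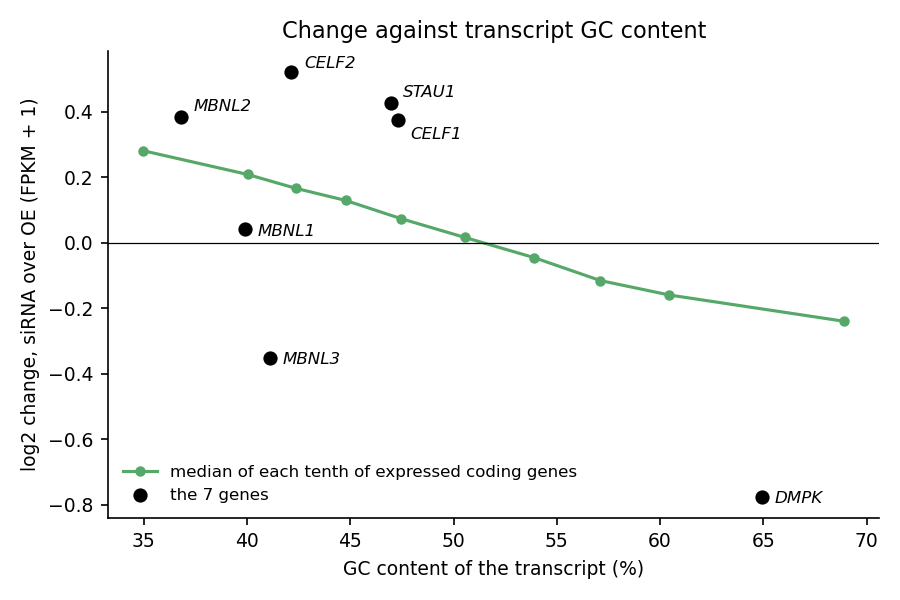
Log2 change of siRNA over OE (FPKM + 1) against the GC content of 1 GENCODE 29 transcript per gene, for the 7 genes (black) and as the median of each of 10 bins of 12942 expressed coding genes (green line). The line goes from 0.28 to -0.24; MBNL3 and DMPK lie farthest below it, and CELF2, STAU1 and CELF1 above it.

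The pentamer TGGAG occurred 9 times in the DMPK transcript, or 3.23 per kb, and 2 times in that of MBNL1, or 0.311 per kb, the highest and lowest densities of the 7. The median over expressed coding genes was 2.18 per kb. MBNL3 had 2.63 and CELF1 2.37 per kb, while CELF2 had 1.12, MBNL2 1.07 and STAU1 0.814 per kb. These counts describe the letters of 1 transcript each and not sites bound by CNBP.

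The closest relatives of the members gave no call among 3 tested, against 1.35% of all tested genes. STAU2, the second Staufen gene, was at 34.7 and 49.6 FPKM, a log2 change of 0.51 with p = 0.330 in the authors' deposited table. The CELF genes of the nervous system were near the floor, CELF4 at 0.773 and 0.425 FPKM (p = 0.0334 in the authors' deposited table) and CELF5 at 1.79 and 1.28 FPKM. CELF3, at 0.348 and 0.341 FPKM, and CELF6, at 0.525 and 0.175 FPKM, were not tested. CELF1 and CELF2 were thus the most abundant CELF genes in these cells.

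Of 6 kinases related to DMPK none was called and 1 had an unadjusted p under 0.05, against 1.35% and 10.9% of all tested genes. Their median log2 change was -0.0057. CIT, the citron kinase of cytokinesis, was at 60.4 and 52.5 FPKM and CDC42BPA, also known as MRCK alpha, at 39.0 and 39.6 FPKM.

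Transcripts known to be misspliced in myotonic dystrophy were mostly present without a call. Of 28 such genes 24 were tested and none was called, against 1.35% of all tested genes. In siRNA 11 were higher and 13 lower, with a median of -0.092, which became 0.068 over genes whose mean FPKM was 1 or more. PKM, the muscle-type pyruvate kinase gene, was at 578.5 and 785.7 FPKM, and APP, the amyloid precursor gene, at 145 and 149 FPKM. BIN1, a membrane-bending protein of muscle tubules chosen after its values were seen, was at 0.987 and 0.482 FPKM and had the smallest q-value of this list, 0.0934 in the authors' deposited table. CLCN1, TNNT3, CACNA1S and RYR1, which muscle uses, were under 1 FPKM in both conditions and not tested; they too were named after their values were seen.

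None of 6 mRNAs known to be bound by CELF1 was called, with a median of 0.21. Over all tested genes 1.35% were called and 10.9% had an unadjusted p under 0.05. JUN, a transcription factor gene, was at 104 and 109 FPKM and CDKN1A, the cell cycle inhibitor p21, at 36.0 and 46.0 FPKM. CEBPB, at 7.97 and 5.16 FPKM, and OCLN, at 14.1 and 22.6 FPKM, had p = 0.00565 and p = 0.0266 in the authors' deposited table and were chosen after their values were seen. None of 14 modifiers of the disease pathway was called (median 0.079) and none had an unadjusted p under 0.05, with the RNA-binding genes HNRNPH1 at 525 and 611.5 FPKM and HNRNPA1 at 407 and 424 FPKM. None of the 3 tested genes of Staufen-mediated decay was called (median 0.063) and none had an unadjusted p under 0.05; ARF1, the transcript in which that decay was described, was at 364 and 380.2 FPKM and PNRC2, a decapping adaptor, at 109 and 180.4 FPKM.

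Other splicing regulators held 2 calls. Of 28 such genes 23 were tested, 1 rose and 1 fell, against 0.572% called higher and 0.782% lower over all tested genes, and the median was 0.044. At an unadjusted p under 0.05 the counts were 2 higher and 2 lower, against 4.51% higher and 6.41% lower over all tested genes. Besides the called genes, those passing were TIAL1 and ESRP1, named after their values were seen. TIAL1 was at 82.1 and 138 FPKM, with p = 0.0201 and q = 0.298 in the authors' deposited table. For ESRP1, at 1.64 and 0.861 FPKM, that table, as the authors deposited it, gives p = 0.0233 and q = 0.317. KHDRBS1, which encodes the STAR-family RNA-binding protein SAM68, fell from 78.7 to 42.3 FPKM (q = 0.00791, authors' deposited table). KHDRBS3, its relative also called SLM2 or T-STAR, rose from 29.1 to 60.4 FPKM (q = 0.0134, authors' deposited table). Thus KHDRBS1 was 1.86-fold lower and KHDRBS3 2.08-fold higher. KHDRBS2, the remaining gene of that family, was listed at 0 in both conditions, and RBFOX2, which regulates many exons that MBNL proteins also regulate, was at 30.4 and 31.4 FPKM without a call; both were named after their values were seen.

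**Figure D5:**
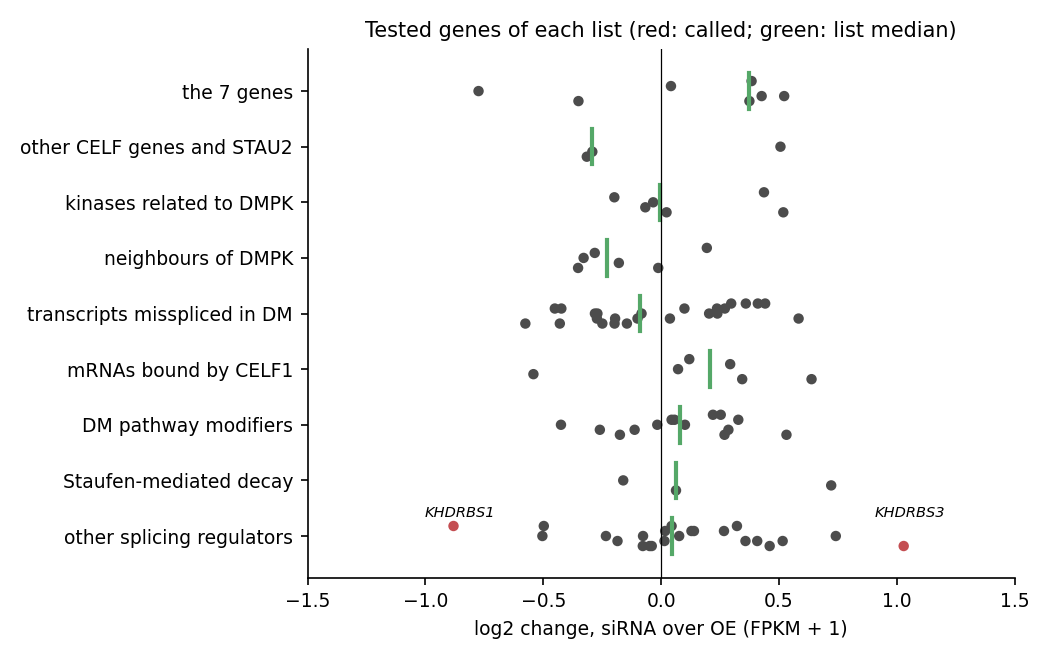
Log2 change of siRNA over OE (FPKM + 1) for each tested gene of the 7 members and of 8 lists, with called genes in red and each list's median as a green bar. Only KHDRBS1, at -0.88, and KHDRBS3, at 1.03, are called in these lists.

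The cells held little muscle RNA. Of 10 skeletal muscle markers only MB was tested, and their summed level was 2.80 FPKM under OE and 1.96 FPKM under siRNA, with MYOG, MYL1 and TNNI2 listed at 0 in both. MB itself was at 1.80 and 0.967 FPKM, with p = 0.0047 and q = 0.143 in the authors' deposited table. The 6 heart muscle markers summed to 2.78 and 4.59 FPKM, nearly all from TNNI3. Embryonic kidney markers were present, with 8 of 9 tested, none called, 1 with an unadjusted p under 0.05, and sums of 77.9 and 86.8 FPKM, PAX8 being near 0. HOXD11, named after its values were seen, gave 40.7 and 36.8 FPKM of those sums. Epithelial markers summed to 165 and 170 FPKM, with none of 5 called and 1 with an unadjusted p under 0.05. For comparison with the kidney and epithelial counts, 1.35% of all tested genes were called and 10.9% had an unadjusted p under 0.05. Of 8 neuronal markers 5 were tested and 1 was called higher, against 0.572% called higher over all tested genes. This was NEFL, at 35.9 and 64.7 FPKM (q = 0.00791, authors' deposited table). STMN2 and NEFM stayed under 1 FPKM. Of the 5 tested neuronal markers, 2 were higher in siRNA, NEFL included, and 3 lower, with a median of -0.049. The 8 neuronal markers summed to 55.8 and 83.9 FPKM, mostly from NEFL. SNAP25 was at 6.79 and 7.45 FPKM, SYT1 at 4.95 and 4.45, TUBB3 at 4.29 and 3.54 and RBFOX3 at 3.48 and 3.33 FPKM, none of them called. The 6 blood markers summed to 1.06 and 0.775 FPKM. The part of these marker levels in the members' values was not tested.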

How the data were processed

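RNA-seq of HEK293 cells was analysed from 1 table. Per the submitters' processing notes, reads were processed with TopHat, Cufflinks and Cuffdiff on hg19, with versions, annotation and settings not given in the sources used here. The authors deposited 1 FPKM per gene for each of 2 conditions, and, for every gene, its p-value and q-value. Which samples entered each condition is not stated. The nested numbering of the CNBP knockdown samples may mark repeated measurements of fewer cultures, but its meaning is not given. Whether samples came from separate cultures is not given either, so the p-values may measure technical spread.

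Folds were recomputed from FPKM with a pseudocount of 1, which understates the change of low genes; folds without "log2" use no pseudocount. The authors' log2 column, damaged by spreadsheet conversion, was not used. Locus starts were printed after adding 1. GENCODE 29 (GRCh38), joined by gene ID, gave transcript letters only, from 1 coding transcript per gene (CCDS first, then APPRIS principal, then longest). The calculations were tested on simulated data.

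The members and lists were chosen with earlier results of these data known. Genes named are the members, CNBP, all relatives and DMPK neighbours, the called genes of each list or else its 2 most abundant, and others said to be chosen after seeing their values. Cell type markers other than the called NEFL were likewise named after their values were seen. Genes of the members' loci are named where a result turns on them. Alternatives changed the pseudocount, scaling, q-value threshold, adjustment and FPKM filter. Python 3.11.15, numpy 2.4.6 and pandas 2.3.3 were used. The values of 1 kinase related to DMPK are not reported here.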

Additional observations from a re-analysis of the deposited data

How the results depend on the processing

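No member was called at q-value thresholds of 0.01, 0.05 or 0.1, after recomputing the Benjamini-Hochberg adjustment, or with a mean of at least 1 FPKM; at an unadjusted p under 0.05 the count was 2. MBNL1 changed sign when centred on genes of like expression (-0.083), like GC content (-0.17) or like GC content of the longest coding transcript (-0.17, added after seeing the data); the other 6 members kept theirs under all alternatives run. The members' median of 0.37 became 0.22 with a pseudocount of 10, 0.25 when centred on expression and 0.10 or 0.11 when centred on GC content by either transcript. Centred on GC content, the medians of the lists became -0.13 for the relatives, 0.13 for the kinases, 0.0087 for the DMPK neighbours, 0.31 for the mRNAs bound by CELF1 and 0.18 for Staufen-mediated decay. For the kinases and the DMPK neighbours this was a change of sign, from -0.0057 and -0.23. The median of the disease pathway modifiers also changed sign, from 0.079 to -0.012. Misspliced transcripts had -0.060 and the other splicing regulators 0.076. The relatives' median was -0.29 over 3 tested genes and became -0.46 with a pseudocount of 0.1. With a mean of at least 1 FPKM fewer genes enter. The relatives' median, over 2 genes, then changed sign to 0.11, and that of misspliced transcripts from -0.092 to 0.068. At a q-value under 0.1 that last list had 1 call, BIN1. The causes were not tested. No paired analysis was possible because values were deposited pooled by condition, and no replicate could be left out. Depth per sample is unknown.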
